A study of Oncorhynchus mykiss with 13 samples.

Results

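Spotted cDNA clones whose signal peaked in post-vitellogenesis were studied in whole ovarian tissue of 13 female rainbow trout (Oncorhynchus mykiss). A clone belonged to this set when its mean log2 ratio over the post-vitellogenic females exceeded both the mean of the late vitellogenic females and the mean of the maturing females by at least 0.4, which is 1.32-fold. Only clones above 0 on all 13 arrays were considered, which were 8077 of the 9023 clones on the array. The margin was passed by 48 clones. None of these belonged to the 90 clones listed by the study (0 of 48), and 5 were set aside because their 6 maturation values all lay below the 7 others, so that 43 clones remained. The 43 clones were chosen by their stage means in these females. The differences between post-vitellogenesis and the other stages are therefore a description of the choice, and nothing is read from them. The spread among females and the female in which a clone was highest come from the same values and are shaped by the choice, because a margin on the means of few arrays favours clones that vary and clones with 1 very high array. They are given as a description too. Only the place of a clone on the plates did not enter it. The differences in females left out did not enter the margin by which those clones were chosen. The filter for values above 0 and the study's list of clones still used all 13 females.

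The ovaries were taken from 2-year-old females of an autumn-spawning strain in their first reproductive season, kept under natural photoperiod at constant water temperature, with no treatment given in the labels. They comprised 3 females in late vitellogenesis (females 2, 3 and 4), 4 in post-vitellogenesis (females 13, 14, 15 and 31) and 6 in oocyte maturation (females 25 to 30), each hybridized to 1 nylon array after labelling with phosphorus-33. Late vitellogenic oocytes showed no visible germinal vesicle, post-vitellogenic oocytes had finished yolk uptake with no change of yolk structure, and maturing oocytes had clarified yolk around germinal vesicle breakdown. The label of female 14 adds that the germinal vesicle lay in the periphery, a remark that the label of no other female carries. Each deposited value is a ratio, the spot signal corrected for the DNA in the spot and divided by the median of its array. A ratio of 1 is thus the median spot of that array, and each clone was compared only with itself across females because spots differ in clone length.

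Post-vitellogenesis is the interval in which the follicle-enclosed oocyte is fully grown and becomes competent to respond to the maturation-inducing steroid, the progestin under which meiosis resumes. Over this interval in trout the granulosa and theca layers around the oocyte turn from estrogen synthesis to the synthesis of that steroid, and the oocyte nucleus, the germinal vesicle, migrates towards the cell surface. A transcript that peaks there and is lower on both sides would belong to this short interval. None of the 43 clones is paired with a gene name in the sources used here (0 of 43), so the clones are given by their array names, no function is attached to them, and no sequence is printed.

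Ovarian aromatase, the granulosa enzyme that makes estrogens and marks the follicle before maturation, was read to describe the single females. Both of its clones are among those the study listed because they differed between these stages on these arrays. Their fall to maturation is therefore no independent check of the stage labels. The aromatase clone tcac0004.f.21 had ratios of 14.7, 19.2 and 14.2 in late vitellogenic females 2, 3 and 4, and between 1.24 and 2.09 in the 6 maturing females. In post-vitellogenesis it had ratios of 6.62, 3.33, 13.4 and 2.24 in females 13, 14, 15 and 31. The second aromatase clone, tcbk0013.n.16, had 10.8, 11.9 and 6.98 in females 2, 3 and 4, 3.61, 1.79, 8.99 and 0.963 in females 13, 14, 15 and 31, and 0.315 to 0.650 in maturation. The post-vitellogenic females were unlike each other for both clones. Female 15 was next to or within the late vitellogenic range, and female 31 was the nearest to the maturing range. Across clones, log2 ratios of females of one stage correlated at 0.913 or more, and 498 to 932 spots per array were at 0, the most for maturing female 30. Whole tissue was used, so that fewer cells of a type and less RNA per cell cannot be told apart for any clone below.

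The post-vitellogenic peak of the 43 clones was carried unevenly by the 4 females. Relative to the mean of the 9 arrays of the other stages, the median log2 deviation of the 43 clones was 0.47 in female 13, 1.07 in female 14, 0.58 in female 15 and 0.27 in female 31. All 43 clones were above that mean in female 14, with deviations from 0.17 to 2.50, while 40, 41 and 41 were above it in females 13, 15 and 31. Outside post-vitellogenesis, the median deviation was 0.08, -0.07 and 0.15 in late vitellogenic females 2, 3 and 4. It ran from -0.18 in maturing female 25 to 0.27 in maturing female 30, in which 35 of the 43 clones lay above the mean. Female 31 and female 30, of different stages, thus had the same median deviation to 2 decimals. Over all 8077 clones the median deviation ran only from -0.06 in female 25 to 0.08 in female 30.

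**Figure D1:**
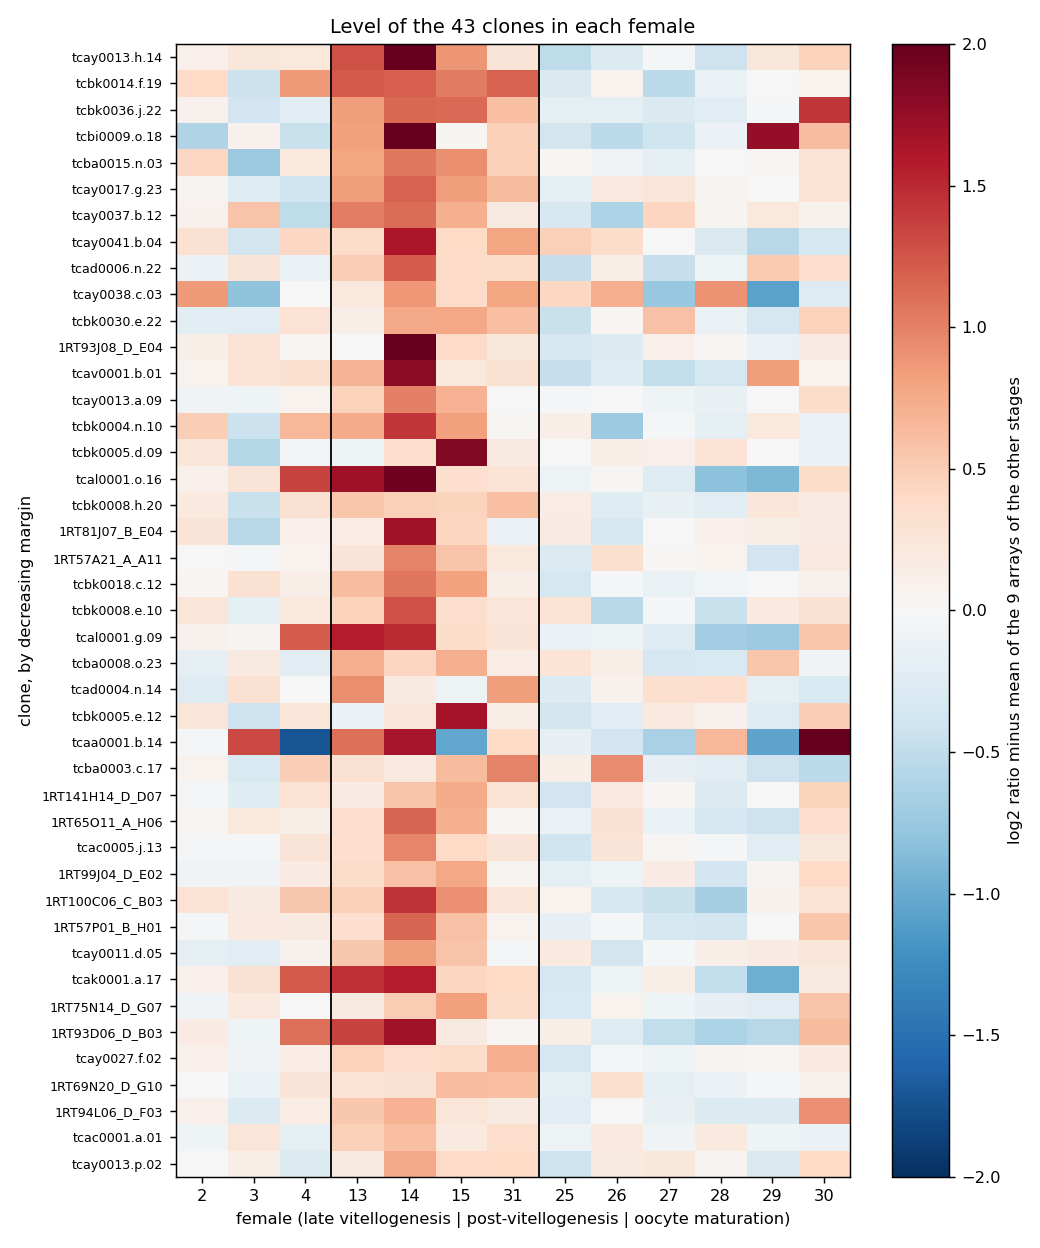
Log2 ratio of each of the 43 clones (rows, by decreasing margin) in each of the 13 females (columns, by stage), minus the mean of the 9 arrays of late vitellogenesis and oocyte maturation. Red is above and blue below that mean, colours stop at 2 and -2, and the column of female 14 is red throughout, whereas that of female 31 is paler.

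**Figure D2:**
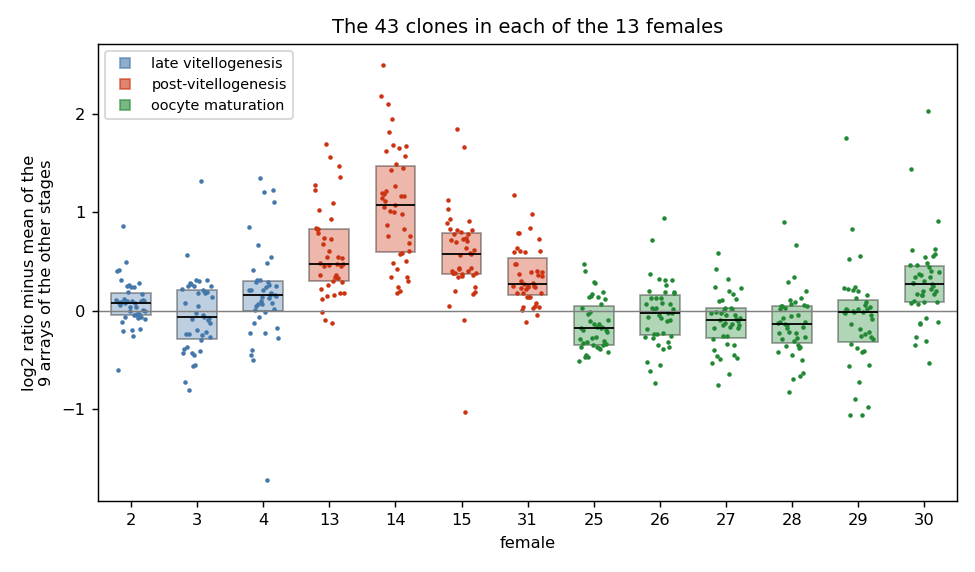
Log2 deviation of the 43 clones from the mean of the 9 arrays of the other stages, by female. Points are clones, boxes span the quartiles and the line is the median, which was 1.07 in female 14, 0.27 in female 31 and 0.27 in maturing female 30.

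Female 14 was the highest of the 4 post-vitellogenic females for 29 of the 43 clones, against 31.6% of all clones. Female 15 was the highest for 7 clones, female 13 for 4 and female 31 for 3, against 15.3%, 24.3% and 28.8% of all clones. At the other end, female 31 was the lowest of the 4 for 24 clones (29.9% of all clones), and female 14 for 2. Female 14 exceeded all 9 arrays of the other stages for 33 of the 43 clones (14.9% of all clones), female 15 for 27 (8.96%), female 13 for 20 (6.82%) and female 31 for 12 (6.43%). All 4 lay above the 9 others for 5 clones (0.310% of all clones), and none of the 4 did for 4 clones (74.0% of all clones). The excess over these shares is built into a choice made on the stage mean, and the order of the 4 females in exceeding the 9 others was the same over all clones. The most frequent combinations above the 9 others were females 14 and 15 in 9 clones, females 13, 14 and 15 in 8, all 4 females in 5, and females 13 and 14 in 4.

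The 5 clones with all 4 post-vitellogenic females above the 9 other females were tcbk0014.f.19, tcba0015.n.03, tcay0017.g.23, tcbk0008.h.20 and tcay0027.f.02. Clone tcbk0014.f.19 had ratios of 2.13, 2.09, 1.87 and 2.06 in females 13, 14, 15 and 31. Its late vitellogenic ratios were 1.20, 0.677 and 1.64 in females 2, 3 and 4, and its maturation ratios ran from 0.631 to 0.960 (median 0.869). The 4 post-vitellogenic values were close together, at 2.04 ± 0.115 (SD, n = 4), 1.85-fold above late vitellogenesis and 2.45-fold above oocyte maturation as ratios of geometric means. All folds of clones below are ratios of geometric means, whereas SDs given beside ratios are on the linear scale. The late vitellogenic females were the most scattered for this clone, with female 3 inside the maturing range and the other two above it.

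Clone tcay0017.g.23 had ratios of 0.773, 0.987, 0.775 and 0.676 in females 13, 14, 15 and 31. In females 2, 3 and 4 they were 0.452, 0.369 and 0.329, and in maturation 0.380 to 0.530 (median 0.475). Late vitellogenic and maturing females overlapped, and the lowest post-vitellogenic female was above both groups. The folds were 2.09 over late vitellogenesis and 1.71 over oocyte maturation. For clone tcba0015.n.03 the post-vitellogenic ratios were 1.04, 1.25, 1.15 and 0.839, against 0.805, 0.363 and 0.698 in late vitellogenesis and 0.531 to 0.732 (median 0.609) in maturation. Here female 31 was only just above female 2, and female 3 was the lowest of all 13 females.

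Lower ratios and smaller differences were found for the 2 remaining clones of this kind. The 4 post-vitellogenic ratios of tcbk0008.h.20 were 0.555, 0.530, 0.515 and 0.574, with 0.434, 0.278 and 0.471 in late vitellogenesis and 0.321 to 0.449 (median 0.382) in maturation. Those of tcay0027.f.02 were 0.435, 0.403, 0.409 and 0.526, with 0.342, 0.301 and 0.353 in late vitellogenesis and 0.251 to 0.364 (median 0.318) in maturation. Female 31 was the highest of all 13 females for both clones, and their folds over the other stages lay between 1.33 and 1.44. The lowest post-vitellogenic and the highest other ratio were 0.515 and 0.471 for the first clone and 0.403 and 0.364 for the second, so that the groups were apart by small steps.

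**Figure D3:**
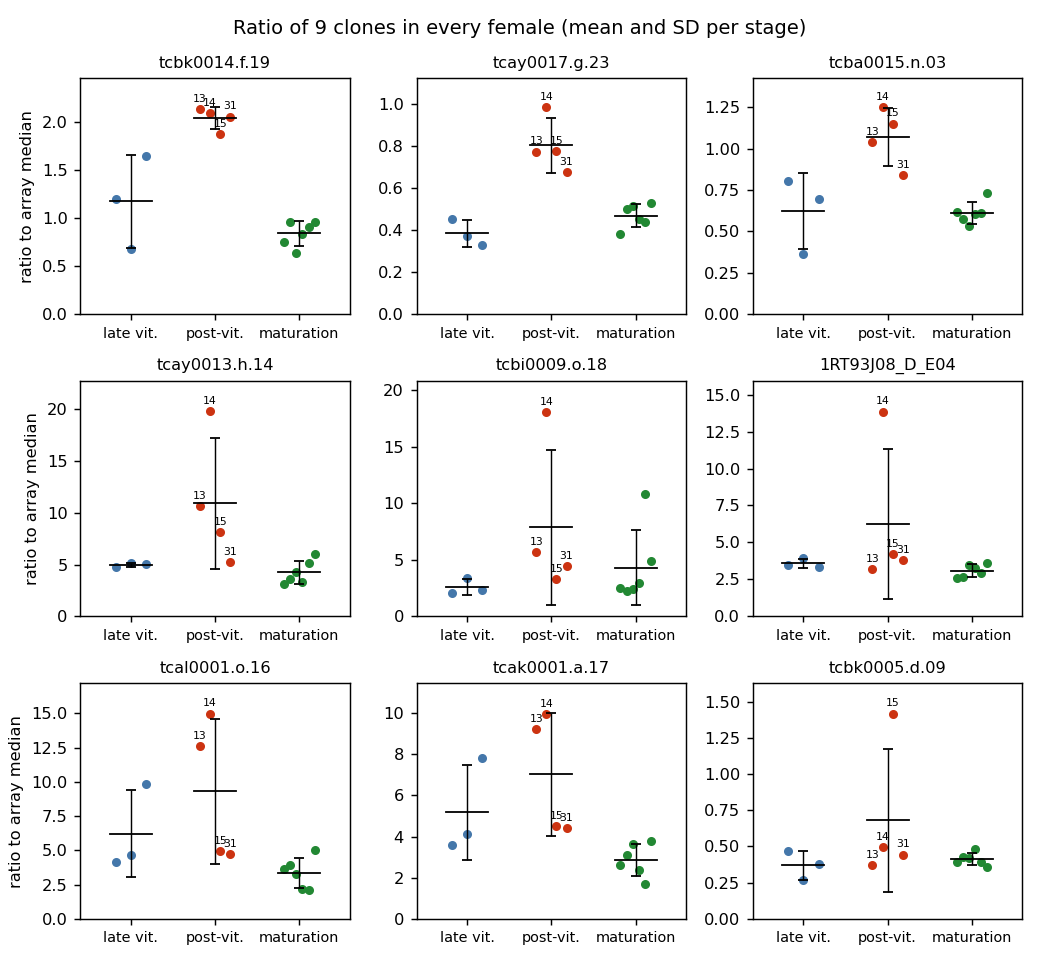
Ratio to the array median in every female for 9 of the 43 clones, with the mean and SD of each stage (3, 4 and 6 females; linear axes from 0). Post-vitellogenic points carry the female number. Clones tcbk0014.f.19, tcay0017.g.23 and tcba0015.n.03 have all 4 above the other stages. Female 14 alone stands high in 1RT93J08_D_E04 and female 15 alone in tcbk0005.d.09. In tcbi0009.o.18 female 14 is the highest, and maturing female 29 is next at 10.8.

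Among all 43 clones the largest margin, the smaller of the 2 differences from the other stages, was 0.97 on the log2 scale, for tcay0013.h.14. This clone had ratios of 10.6, 19.8, 8.11 and 5.22 in females 13, 14, 15 and 31, of 4.72, 5.11 and 5.05 in late vitellogenesis, and of 3.08 to 6.03 (median 3.97) in maturation. Females 13, 14 and 15 were above every other female, but female 31 was inside the maturing range and next to late vitellogenic female 3. The folds of the geometric stage means were 1.96 over late vitellogenesis and 2.36 over oocyte maturation. The post-vitellogenic SD of the ratios, 6.33 (n = 4), was far larger than the SD of 0.209 in late vitellogenesis (n = 3).

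The same arrangement, females 13, 14 and 15 above the 9 others and female 31 among them, was seen in 8 clones in all. Clone tcay0037.b.12 had 6.25, 6.68 and 5.07 in females 13, 14 and 15 and 3.49 in female 31, against 3.28, 4.57 and 2.18 in late vitellogenesis and 2.01 to 4.13 (median 3.24) in maturation. Clone tcbk0018.c.12 had 2.31, 3.17, 2.63 and 1.66 in females 13, 14, 15 and 31, against 1.55, 1.87 and 1.67 in late vitellogenesis and 1.19 to 1.61 (median 1.46) in maturation. For the latter all 4 post-vitellogenic values were above all maturing ones, and female 31 lay within late vitellogenesis. The other 5 were tcay0013.a.09, tcbk0004.n.10, tcbk0008.e.10, tcac0005.j.13 and tcay0011.d.05. Their geometric means in post-vitellogenesis were between 1.34-fold and 1.84-fold above each of the other stages.

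Clone tcbk0036.j.22, the third by margin (0.84), had no post-vitellogenic female above all the others. Its ratios were 0.555, 0.688, 0.680 and 0.470 in females 13, 14, 15 and 31, and 0.331, 0.238 and 0.265 in late vitellogenesis. In maturation 5 of the 6 females lay between 0.254 and 0.306, and female 30 reached 0.841, the highest ratio of all 13 females. Post-vitellogenesis was entirely above late vitellogenesis for this clone and above all maturing females but female 30. Clone 1RT94L06_D_F03 had a similar arrangement at a smaller margin (0.41). Its ratios were 0.658, 0.731, 0.536 and 0.512 in post-vitellogenesis, 0.484, 0.376 and 0.502 in late vitellogenesis, and 0.376 to 0.852 (median 0.399) in maturation. Female 30 was again the highest of all 13 females.

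In 2 further clones without any post-vitellogenic female above the 9 others, the stages overlapped widely. The ratios of tcay0038.c.03 were 0.501, 0.787, 0.564 and 0.748 in post-vitellogenesis, 0.781, 0.246 and 0.435 in late vitellogenesis, and 0.207 to 0.807 (median 0.466) in maturation. Those of tcaa0001.b.14 were 1.74, 2.55, 0.396 and 1.06 in post-vitellogenesis, 0.788, 2.03 and 0.246 in late vitellogenesis, and 0.390 to 3.31 (median 0.672) in maturation. Every stage of tcaa0001.b.14 held both low and high females, and its log2 difference from late vitellogenesis changed from 0.67 to -0.11 without female 4. Both clones met the margin with post-vitellogenic values inside the range of the other stages.

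Female 14 alone stood out in several clones. Clone 1RT93J08_D_E04 had a ratio of 13.8 in female 14, and of 3.20, 4.20 and 3.78 in females 13, 15 and 31. In late vitellogenesis it had 3.49, 3.92 and 3.32, and in maturation 2.57 to 3.63 (median 3.11). Apart from female 14, the 13 females lay within a narrow band, and the margin fell from 0.53 to 0.05 without that female. Clone 1RT81J07_B_E04 had 3.09 in female 14, 1.07, 1.30 and 0.890 in the 3 other post-vitellogenic females, 1.15, 0.657 and 1.03 in late vitellogenesis and 0.756 to 1.08 (median 1.05) in maturation. Its margin was 0.50 with and 0.12 without female 14, so that here too a single female made the peak.

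Clones tcbi0009.o.18 and tcav0001.b.01 were high in female 14 and, to a lesser degree, in maturing female 29. The ratios of tcbi0009.o.18 were 5.67, 18.1, 3.31 and 4.43 in females 13, 14, 15 and 31, against 2.11, 3.39 and 2.34 in late vitellogenesis and 2.23 to 10.8 (median 2.72) in maturation. Those of tcav0001.b.01 were 1.38, 3.03, 0.993 and 1.06 in post-vitellogenesis, 0.908, 1.04 and 1.07 in late vitellogenesis and 0.612 to 1.54 (median 0.702) in maturation. Female 29 held the highest maturing value of both clones. Without female 14 their margins were 0.29 and 0.17. Female 14 was also the highest of all 13 females for tcay0041.b.04, with 1.88 against 0.786, 0.809 and 1.05 in females 13, 15 and 31, and for tcad0006.n.22, with 4.23 against 2.55, 2.37 and 2.35. For tcay0041.b.04 the other stages ran from 0.415 to 0.852, and for tcad0006.n.22 from 1.31 to 2.63, so that only females 14 and 31 of the first clone and female 14 of the second lay above them.

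A group of 4 clones, singled out after their values were seen, was high in post-vitellogenic females 13 and 14 and in late vitellogenic female 4. Clone tcal0001.o.16 had ratios of 12.6, 14.98, 4.93 and 4.70 in females 13, 14, 15 and 31, and of 4.15, 4.62 and 9.87 in females 2, 3 and 4. In maturation it ran from 2.09 to 4.99 (median 3.43). Female 4 was above females 15 and 31, so the stages did not separate, and the 2 low post-vitellogenic females were near late vitellogenic females 2 and 3. The same arrangement was found in tcal0001.g.09, with 5.91, 5.60, 2.59 and 2.38 in post-vitellogenesis, 2.13, 2.07 and 4.61 in late vitellogenesis and 1.21 to 2.92 (median 1.75) in maturation. It was found in tcak0001.a.17, with 9.22, 9.94, 4.51 and 4.41, then 3.58, 4.13 and 7.82, then 1.69 to 3.76 (median 2.87).

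The fourth clone of this group, 1RT93D06_D_B03, had 7.56, 9.44, 3.34 and 3.03 in post-vitellogenesis, 3.32, 2.77 and 6.37 in late vitellogenesis and 1.90 to 4.58 (median 2.29) in maturation. Of these 4 clones, only tcak0001.a.17 had all post-vitellogenic values above all maturing ones. Their folds over oocyte maturation were 2.01 to 2.55, the upper end belonging to tcal0001.o.16 and being the largest of the 43 clones, while those over late vitellogenesis were 1.33 to 1.41. When arrays were weighted by their closeness to the fitted mean of their own stage, female 4 had the largest weight (4.32). The difference from late vitellogenesis then became negative for all 4 clones, at -0.13 to -0.22 on the log2 scale. The weights of the other arrays changed in the same fit, and the part of female 4 alone was not tested.

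Female 15 alone carried 2 clones of one plate. Clone tcbk0005.d.09 had a ratio of 1.42 in female 15, against 0.369, 0.497 and 0.444 in females 13, 14 and 31, 0.466, 0.266 and 0.377 in late vitellogenesis and 0.361 to 0.480 (median 0.407) in maturation. Clone tcbk0005.e.12 had 0.853 in female 15, against 0.247, 0.318 and 0.297 in females 13, 14 and 31, 0.319, 0.203 and 0.319 in late vitellogenesis and 0.208 to 0.378 (median 0.259) in maturation. Apart from female 15, the females overlapped across the 3 stages, except that female 14 (0.497) lay just above the other stages for tcbk0005.d.09. The margins, 0.50 and 0.45, became 0.08 and 0.06 without female 15. These 2 clones are not in neighbouring wells.

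Females 13 and 31 exceeded the other stages in tcad0004.n.14, with ratios of 2.64 and 2.48 against 1.56 and 1.29 in females 14 and 15. The late vitellogenic ratios of this clone were 1.15, 1.70 and 1.37, and its maturation ratios were 1.12 to 1.75 (median 1.34). Female 31 was highest for tcba0003.c.17, with 1.51 against 0.944, 0.878 and 1.19 in females 13, 14 and 15. The other stages of that clone ran from 0.530 to 1.47, and maturing female 26, at 1.47, nearly reached female 31. Clone tcba0008.o.23 was high in females 13 and 15, at 3.26 and 3.25, with 2.63 and 2.17 in females 14 and 31 and a highest value of 2.88 elsewhere.

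Females 14 and 15 together led the largest combination, the most frequent pair over all clones too (3.57% of them). Besides 1RT93J08_D_E04, 1RT81J07_B_E04 and tcbk0005.d.09 it held 1RT57A21_A_A11, 1RT141H14_D_D07, 1RT65O11_A_H06, 1RT99J04_D_E02, 1RT100C06_C_B03 and 1RT57P01_B_H01. Clone 1RT100C06_C_B03, whose log2 ratio averaged 2.81 over the females, had ratios of 8.27, 16.3, 11.2 and 7.02 in females 13, 14, 15 and 31. Its late vitellogenic ratios were 7.25, 6.76 and 8.69, and its maturation ratios were 3.75 to 7.20 (median 5.52). Females 13 and 31 were thus within late vitellogenesis, and only female 31 of the 4 was below a maturing female. Clone 1RT57A21_A_A11 had 2.55, 4.26, 3.16 and 2.48 in post-vitellogenesis, 2.13, 2.10 and 2.24 in late vitellogenesis and 1.64 to 2.66 (median 2.20) in maturation. The 4 others had geometric means in post-vitellogenesis between 1.35-fold and 1.54-fold above each of the other stages.

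The 5 clones not yet described were 1RT75N14_D_G07, tcbk0030.e.22, 1RT69N20_D_G10, tcac0001.a.01 and tcay0013.p.02. Clone 1RT75N14_D_G07 had 6.00, 7.51, 9.38 and 6.82 in post-vitellogenesis, 5.07, 6.05 and 5.36 in late vitellogenesis and 4.29 to 7.89 (median 4.86) in maturation. Only female 15 exceeded all other stages, because maturing female 30 was above females 13, 14 and 31. Clone 1RT69N20_D_G10 had 0.897, 0.903, 1.12 and 1.11 in post-vitellogenesis, 0.735, 0.670 and 0.872 in late vitellogenesis and 0.639 to 0.908 (median 0.692) in maturation. Post-vitellogenesis was entirely above late vitellogenesis for it, and maturing female 26 was above the lower 2 females. Clone tcbk0030.e.22 had 0.283, 0.440, 0.447 and 0.397 in post-vitellogenesis, 0.227, 0.222 and 0.319 in late vitellogenesis and 0.191 to 0.393 (median 0.252) in maturation, so that female 13 alone of the 4 was among the other stages. Clones tcac0001.a.01 and tcay0013.p.02 were close to the limit of the margin, with 1.49, 1.63, 1.22 and 1.37 and with 0.888, 1.33, 1.02 and 1.03 in females 13, 14, 15 and 31. Elsewhere they ran from 0.949 to 1.27 and from 0.587 to 1.03.

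Limma was fitted on log2 ratios over all 8077 clones with the 3 stages together, and p-values were adjusted by Benjamini-Hochberg (two-sided threshold of 0.05). Between post-vitellogenesis and late vitellogenesis, 1 of the 43 clones passed (0.0248% of all clones were called higher in post-vitellogenesis), tcay0017.g.23, and 25 of 43 were higher at an unadjusted p under 0.05 (2.25% of all clones). That call was lost without female 3, 4, 13 or 14. Between post-vitellogenesis and oocyte maturation, 11 of the 43 passed (2.76% of all clones were called higher in post-vitellogenesis), and 36 were higher at an unadjusted p under 0.05 (809 of all 8077 clones). The 11 were tcay0013.h.14, tcbk0014.f.19, tcba0015.n.03, tcay0017.g.23, tcal0001.o.16, tcbk0018.c.12, tcal0001.g.09, 1RT100C06_C_B03, tcak0001.a.17, tcay0027.f.02 and 1RT69N20_D_G10. Both contrasts were used by the choice and share the post-vitellogenic arrays, so these counts describe the chosen clones. The count of 11 depended on single females, being 6, 5 and 7 without females 13, 14 and 15, and 19 and 22 without females 31 and 30. Over all clones, the 223 called higher in post-vitellogenesis moved in the same directions, to 163, 85, 64, 310 and 364. Only tcay0017.g.23 was called in both contrasts.

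**Figure D4:**
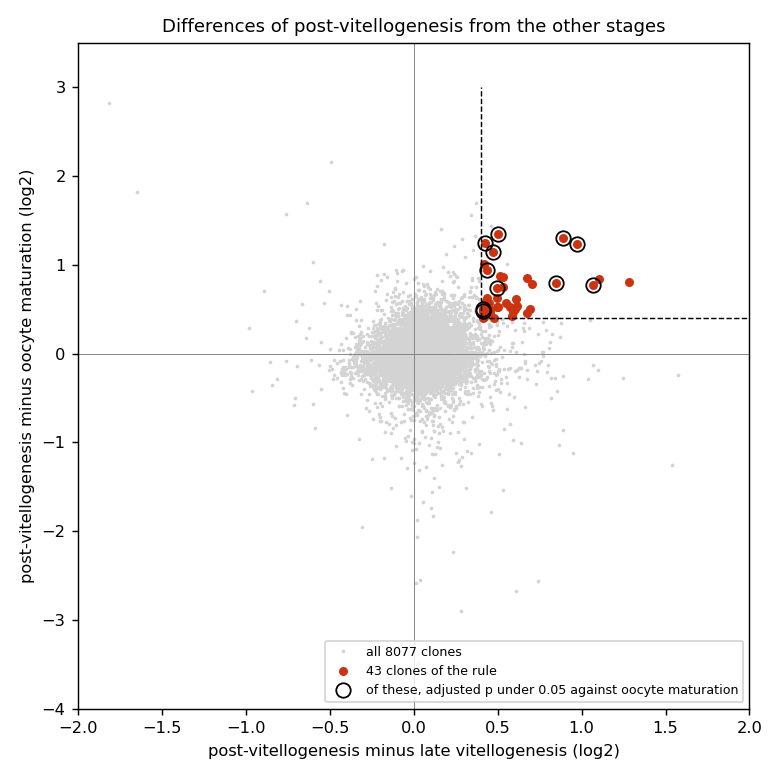
Difference of the post-vitellogenic mean from the late vitellogenic mean (x axis, log2) and from the maturing mean (y axis, log2) for all 8077 clones in grey, the 43 clones in red, and the 11 called against oocyte maturation by limma ringed. Dashed lines mark the margin of 0.4 that chose the clones; unringed grey points beyond both lines were set aside by the rule, and 2 clones lie outside the axes.

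The median log2 difference of the 43 clones was 0.50 between post-vitellogenesis and late vitellogenesis and 0.57 between post-vitellogenesis and oocyte maturation, against 0.03 and -0.01 over all clones. All 4 post-vitellogenic females were above all late vitellogenic females for 12 of the 43 clones (27.9%, against 3.63% of all clones). They were above all maturing females for 7 (16.3%, against 2.88% of all clones). A choice on stage means builds in such an excess. On the maturing side the rule also lowered the count, because the 5 clones set aside had all maturation values below the others. The margin was at least 0.5 for 17 of the 43 clones and at least 0.8 for 4.

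Late vitellogenesis and oocyte maturation, on either side of the peak, had similar levels for most of the 43 clones. The median log2 difference, late vitellogenesis minus oocyte maturation, was 0.04, against -0.03 over all clones, and late vitellogenesis had the higher mean for 29 of the 43 clones (45.4% of all clones). That median depended on the processing. It was 0.21 with array weights (-0.01 over all clones), 0.13 with quantile normalization (0.02 over all clones) and 0.13 with stage medians. By limma 0 of the 43 clones passed between these stages (4.04% of all clones were called in either direction), 3 had an unadjusted p under 0.05 (19.6% of all clones), and the fit with array weights called 8 (16.8% of all clones). The choice bears on this comparison, since both stages had to lie below post-vitellogenesis and clones with all maturation values below the rest were set aside. The largest differences were those of tcal0001.o.16 (0.85), tcak0001.a.17 (0.82) and tcal0001.g.09 (0.67), the clones in which late vitellogenic female 4 was high. In the opposite direction, tcbi0009.o.18 was lower in late vitellogenesis by 0.48 with a standard error of 0.48, and maturing female 29 was its highest maturing female.

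Within a stage, the chosen clones varied between females, as a choice on means of few arrays favours. The median SD of log2 ratios was 0.40 in post-vitellogenesis, 0.24 in late vitellogenesis and 0.33 in oocyte maturation, against 0.18, 0.18 and 0.22 over all clones. The SD was above 0.5 in post-vitellogenesis for 16 of the 43 clones (2.45% of all clones), in late vitellogenesis for 10 (3.14%) and in maturation for 6 (3.10%). The smallest post-vitellogenic SDs were those of tcbk0008.h.20 (0.07) and tcbk0014.f.19 (0.08), both from the clones in which all 4 females were above the others. The largest were those of tcaa0001.b.14 (1.16) and tcbi0009.o.18 (1.07). Female 30 was the highest maturing female for 25 of the 43 clones (35.5% of all clones) and female 3 the lowest late vitellogenic female for 24 (39.0% of all clones). Mean log2 levels of the 43 clones ran from -1.76 to 2.81 (median 0.19), within the range of all clones, -2.99 to 6.31 (median 0.06).

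How far the margin rested on 1 female was read by leaving out each post-vitellogenic female in turn. Of the 43 clones, 34 kept the margin without female 13, 18 without female 14, 33 without female 15 and 39 without female 31. Only 10 kept it whichever of the 4 was left out: tcay0013.h.14, tcbk0014.f.19, tcbk0036.j.22, tcba0015.n.03, tcay0017.g.23, tcay0037.b.12, tcad0006.n.22, tcay0038.c.03, tcbk0030.e.22 and tcbk0008.h.20. A further 13 clones lost it only without female 14. When the choice itself was made anew, 28 clones were chosen without female 14, of which 18 were among the 43. Without female 31 the choice took 102 clones, without female 4 it took 74 and without female 13 it took 65, with 39, 40 and 34 of the 43 among them. The set rested on late vitellogenic females too. Without female 3 the choice took 34 clones, with 24 of the 43 among them. Without female 2 it took 39, with 30 of the 43 among them. The 10 clones above were read for the post-vitellogenic females only.

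The same differences were read in females that had no part in the margin, although they still counted in the filter for values above 0. The clones were chosen by the same rule without 1 female of each stage, in each of the 72 combinations, and the differences were taken from the 3 females left out. Between 18 and 130 clones were chosen (median 56.5). The median difference between the left-out post-vitellogenic and late vitellogenic females was 0.20 (from -0.26 to 0.35 over the combinations). Between the left-out post-vitellogenic and maturing females it was 0.31 (from -0.21 to 1.03). It was above 0 in 56 and 67 of the 72 combinations, which share females and are not independent. Over all clones, the median difference from late vitellogenesis was above 0 in every combination (0.004 to 0.068). From maturation it ran from -0.08 to 0.07 over all clones. The sign alone thus does not set the chosen clones apart on the late vitellogenic side. In the left-out females, the post-vitellogenic value was above both others for 50% of the chosen clones in the median combination, against 33.5% of all clones.

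The left-out result depended on which post-vitellogenic female was read. With female 14 left out of the choice, the median differences were 0.27 from late vitellogenesis and 0.41 from maturation, and with female 13 they were 0.21 and 0.32. With female 15 they were 0.21 and 0.37. With female 31 they were -0.06 and 0.09, and female 31 was above both other females for 27.2% of the chosen clones, against 32.6% of all clones. Clones chosen on females 13, 14 and 15 thus did not have the peak in female 31 more often than other clones did. For each of the other 3 females, the median over combinations held part of the peak. For female 13 this also depended on the females it was read against. Its median difference from late vitellogenic female 4 was -0.03 to 0.04, against 0.02 over all clones. From maturing female 30 it was -0.04 to 0.03, against -0.04 over all clones. For each post-vitellogenic female, the combinations read 1 array against 3 late vitellogenic and 6 maturing arrays, so they are not replicates. For females 14 and 15 both differences were above 0 in all 18 combinations each. From late vitellogenesis they were 0.08 to 0.35 and 0.08 to 0.26, against 0.01 to 0.07 and 0.01 to 0.05 over all clones. From maturation they were 0.03 to 1.03 and 0.07 to 0.54, against -0.07 to 0.06 and -0.08 to 0.04 over all clones. Over all clones too, the difference from late vitellogenesis was thus above 0 throughout.

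**Figure D5:**
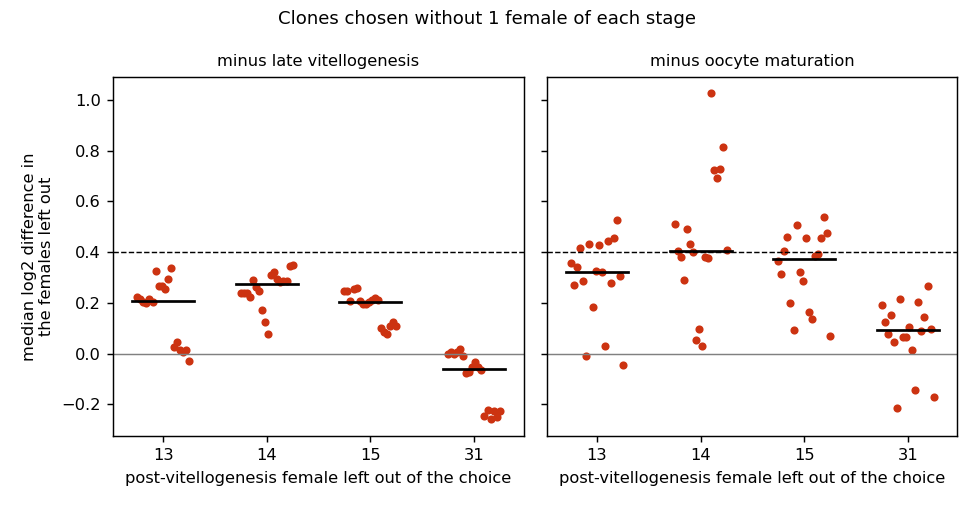
Median log2 difference of the chosen clones in the 3 females left out of the choice, minus late vitellogenesis (left) and minus oocyte maturation (right), by the post-vitellogenic female left out. Each point is 1 of 72 combinations, the bars are medians (0.27 and 0.41 for female 14, -0.06 and 0.09 for female 31), and the dashed line is the margin of 0.4 in the choosing females.

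The margin of 0.4 does not mark a break in the data. Just inside it were 1RT94L06_D_F03 (0.41), tcac0001.a.01 (0.40) and tcay0013.p.02 (0.40). Just outside were tcbk0052.a.04 (0.40, below the limit before rounding), tcay0013.h.10 (0.39) and tcad0006.e.15 (0.39). Clone tcbk0052.a.04 was 0.84 above late vitellogenesis and missed only on the side of oocyte maturation. The opposite pattern, post-vitellogenesis lowest by the same margin, was met by 7 clones. Among these, tcay0017.g.02 had the largest margin, with ratios of 0.524, 0.360, 0.409 and 0.502 in females 13, 14, 15 and 31, 0.411, 1.67 and 0.432 in late vitellogenesis and 0.544 to 1.07 in maturation. All post-vitellogenic values were below the maturing ones, but late vitellogenic females 2 and 4 lay among them.

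The 5 clones set aside had their highest ratios in females 14 or 15 as well. They were 1RT36I05_A_E03, 1RT89M01_A_G01, tcac0001.h.06, tcay0024.o.24 and tcba0006.d.03. Clone 1RT89M01_A_G01 had 4.50, 8.25, 8.06 and 4.08 in females 13, 14, 15 and 31, 3.87, 3.60 and 4.71 in late vitellogenesis and 2.30 to 3.46 in maturation. Females 13 and 31 were again within the late vitellogenic range. These 5 clones were lower in maturation than in post-vitellogenesis by 0.89 to 1.44 on the log2 scale. Their exclusion required only that every maturation value lay below all others, not a size of difference.

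The 43 clones came from 36 of the 327 clone plates, and none lay in neighbouring wells (0 pairs, 21 names giving no well among all clones). Plate tcay0013 held 3 of them among 34 clones, tcay0013.h.14, tcay0013.a.09 and tcay0013.p.02. Plates 1RT57, tcbk0008, 1RT93, tcbk0005 and tcal0001 held 2 each. By the first letters of the clone name, 12 were 1RT clones, of 2884 analysed, and 31 were tc clones, of 5193. The small tcal and tcak series, of 8 clones each, gave 2 and 1 of the 43, and these 3 are clones of the group that was high in females 4, 13 and 14.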

How the data were processed

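Whole ovarian RNA of 13 females was hybridized to nylon cDNA arrays with clones spotted in duplicate, 1 array per female. Per the methods, the authors excluded spots with a low vector oligonucleotide signal, corrected each signal for the DNA in the spot and divided it by the array median; the deposited values are these ratios, with 1 column per female, and how duplicates were joined and what an exact 0 means are not given in the sources used here. Of 9216 spots, 9023 were clones; 280 at 0 on every array and 666 at 0 on some arrays were left out, and 8077 were kept as log2 ratios with no further scaling. Stages came from the labels. No batch or hybridization date is given in the sources used here.

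Limma (version 3.58.1, R 4.3.3) was fitted with the 3 stages together, with Benjamini-Hochberg adjustment over 8077 clones and a two-sided threshold of 0.05. SAM, the tool of the methods, was not run. Between post-vitellogenesis and late vitellogenesis, the fit on simulated data recovered 10 of 50 clones changed by 0.5 (log2) and 46 of 50 changed by 1. Between post-vitellogenesis and oocyte maturation it recovered 19 and 48 of 50. The changed clones were drawn from all clones, with independent values and arrays of equal quality. The 43 clones varied more (median post-vitellogenic SD of 0.40 against 0.18 over all clones), so these rates do not carry over to them. Figures were drawn with matplotlib 3.10.9. The number of arrays per stage limits the precision.

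The clones, the lists and the rule for naming were chosen with earlier results of these data known. Named were the 10 clones with the largest margin, those with all 4 post-vitellogenic females above the 9 others, those called, the 5 with the largest mean log2 ratio, those at the margin, and the 2 per post-vitellogenic female led most by it; others are named after their values were seen. Lists of genes and of blood, muscle and leukocyte markers could not be applied, because no table pairs these clones with genes. Alternatives were another scaling, quantile normalization, a pseudocount of 0.1, clones with some zeros kept, dim clones left out, array weights, a variance trend, 2 stages at a time, linear ratios, stage medians, other margins and each female left out.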

Additional observations from a re-analysis of the deposited data

Results flagged for a closer look

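In groups of 4 and 6 females, a value was marked when its gap to the nearest female, divided by the range of the group, exceeded the critical value of Dixon's test (0.829 for 4 and 0.625 for 6 females). Chance marks about 1 in 20 groups. Of the 43 clones, 1 (2.33%) was marked in post-vitellogenesis, against 5.82% of all clones. In oocyte maturation 4 (9.30%) were marked, against 8.36% of all clones. The first share was below that of all clones and the second near it, so nothing about the 43 clones is read from these counts. In post-vitellogenesis, female 14 stood high for tcad0006.n.22 with a ratio of 4.23 (gap of 0.8614 of the range). In oocyte maturation, female 30 stood high for tcbk0036.j.22 with a ratio of 0.841 (0.8456), for 1RT94L06_D_F03 with 0.852 (0.7594) and for tcay0013.a.09 with 1.04 (0.7272). Maturing female 26 stood low for 1RT81J07_B_E04 with a ratio of 0.756 (0.696). The array of female 30 had the most spots at 0 (932) and the smallest SD of log2 ratios over the clones kept (1.07, against up to 1.35 in female 3), and the part of these properties in the 3 high values was not tested.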

How the results depend on the processing

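The number of clones that met the margin and were not set aside was 43. It was 69 with clones at 0 on some arrays kept at log2(ratio + 0.05) (38 of the 43 among them), 107, 17 and 9 at margins of 0.3, 0.5 and 0.6, and 28 to 102 with 1 female left out (28 without female 14, 65 without 13, 74 without 4 and 102 without 31). Quantile normalization gave 31 clones, of which 27 were shared, and stage medians gave 52, of which 26 were shared. Of the 43, those called above late vitellogenesis were 1, but 5 with array weights, 0 with only the 2 stages in the fit, 0 with linear ratios and 0 to 2 with 1 female left out. Those called above oocyte maturation were 11, but 30 with array weights, 4 with linear ratios and 5 to 22 with 1 female left out (22 without female 30). Between late vitellogenesis and maturation the 0 became 8 with array weights and 0 to 1 with 1 female left out. Over all clones, array weights changed the calls from 369 to 974 between post-vitellogenesis and maturation, from 326 to 1355 between late vitellogenesis and maturation and from 2 to 22 between post-vitellogenesis and late vitellogenesis, and linear ratios to 212, 110 and 0.

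With 1 female left out, the median differences of the 43 ran from 0.40 to 0.67 (post-vitellogenesis minus late vitellogenesis), 0.50 to 0.71 (minus maturation) and 0.02 to 0.14 (late vitellogenesis minus maturation). In females that had no part in the margin, the median post-vitellogenic differences were 0.20 from late vitellogenesis and 0.31 from maturation. Those 2 values were read on clones chosen anew in each combination, not on the 43. For single clones, 1673 values kept their direction and side of the threshold, 64 came to pass it, 46 no longer passed it, and 5 changed sign. These were post-vitellogenesis minus late vitellogenesis with array weights for tcal0001.o.16 (-0.17), tcal0001.g.09 (-0.13), tcak0001.a.17 (-0.13) and 1RT93D06_D_B03 (-0.22), and for tcaa0001.b.14 with 1 female left out (-0.11 to 1.41, the lowest without female 4). For these changes the cause was not tested. No paired analysis was possible because the stages share no female number.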
